A study of Mus musculus with 19 samples.

Results

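The interferon-stimulated genes are the antiviral programme that cells switch on when interferon reaches them. The 41 members examined here were listed by gene name and found by that name on the array, where 60 of its 55681 probes carry them. The array names 34797 genes in all. Of the 41 members, 35 had a probe well above background on at least 4 arrays and entered the test.

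Type I interferon binds the receptor chains IFNAR1 and IFNAR2, whose kinases JAK1 and TYK2 start a signal that ends at the interferon-stimulated response element (ISRE) in target promoters, where STAT2 and IRF9 act. Targets include the IFIT proteins, which bind viral RNA, the OAS enzymes, which activate RNase L, the interferon-inducible GTPases, the ubiquitin-like protein ISG15 and the sensors of foreign nucleic acid. T cells carry a resting level of this programme from tonic interferon.

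The samples were CD4 T cells from spleen and lymph nodes of adult female C57Bl/6 mice, taken as 4 populations by reporter, and every group carried both transgenes of the Tg IL-2-GFP x FOXP3mRFP genotype. Green fluorescence reports IL-2, the T cell growth factor, and red fluorescence reports Foxp3, the transcription factor of regulatory T cells. The groups were 4 GFP+RFP+ arrays (IL-2-producing regulatory cells by label), 5 GFP-RFP+ arrays (regulatory cells), 5 GFP+RFP- arrays (IL-2-producing CD4 T cells) and 5 GFP-RFP- arrays (other CD4 T cells). The labels' design speaks of 5 replicates of each population and calls all 4 conventional, while the source names call both RFP+ populations regulatory. The series title asks how regulatory cells relate to cells that make IL-2. Whether replicates are separate animals is not in the labels, so p-values measure sample-to-sample spread that may be technical only. RNA was amplified by a global PCR before labelling, and in such bulk samples fewer cells of a type and less RNA per cell cannot be told apart.

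The arrays differed in brightness along the red reporter. RFP+ arrays had 22.0% to 39.4% of probes well above background, against 30.2% to 44.9% on RFP- arrays (mean difference -7.97 points, exact permutation test, two-sided p = 0.0031, 0.016 adjusted over 10 tests). The log2 of the 75th percentile of signal was lower on RFP+ arrays by a difference of -1.20 (exact permutation p = 8.7e-05, 0.00087 adjusted). Foxp3 was bright on 1 array only, GFP-RFP+ replicate 3 (log2 signal 0.25), and lay between -8.64 and -5.49 on the other RFP+ arrays, against -8.50 to -6.89 on RFP- arrays. Of 8 T cell markers, 7 or 8 were detected on every array. Of 6 B cell markers, 2 to 4 were detected on RFP+ arrays, against 3 to 6 on RFP- arrays, and their part in the results was not tested. The ranges on RFP+ and RFP- arrays were 2 to 5 and 2 to 5 of 6 plasmacytoid dendritic markers, 2 to 6 and 4 to 6 of 8 myeloid and dendritic markers, and 0 to 2 and 1 to 4 of 4 NK markers. They were 0 to 1 and 0 to 1 of 2 CD8 markers, and 1 to 5 and 2 to 5 of 8 erythroid and platelet markers. Il2 lay between -10.44 and -1.51 on GFP+ arrays and between -11.80 and -2.57 on GFP- arrays.

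The promoters of Ifit1 and Ifit3 are shown because these members had the 2 largest differences between red and other cells. Both sequences are RefSeq windows of 300 bases on the plus strand of GRCm38.p6, from 250 bases before the start of the gene to 50 after it, at chr19:34640639-34640938 for Ifit1 and chr19:34583279-34583578 for Ifit3. Capitals mark matches to the ISRE core GAAANNGAAA on either strand.
Ifit1: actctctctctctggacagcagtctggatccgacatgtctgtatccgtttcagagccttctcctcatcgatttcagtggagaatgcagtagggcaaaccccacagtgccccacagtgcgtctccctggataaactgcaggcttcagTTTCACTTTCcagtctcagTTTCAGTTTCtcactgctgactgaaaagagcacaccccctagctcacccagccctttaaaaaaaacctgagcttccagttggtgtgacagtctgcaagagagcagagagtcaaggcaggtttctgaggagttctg
Ifit3: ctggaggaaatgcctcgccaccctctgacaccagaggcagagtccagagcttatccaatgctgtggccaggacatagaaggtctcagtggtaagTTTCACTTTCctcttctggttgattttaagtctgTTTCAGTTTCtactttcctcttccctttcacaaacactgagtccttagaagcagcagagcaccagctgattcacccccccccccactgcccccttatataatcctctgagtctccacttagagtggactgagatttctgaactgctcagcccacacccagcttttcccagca
Each window held 2 copies of the core, TTTCACTTTC and TTTCAGTTTC as printed, on the minus strand. The 2 Ifit1 copies began 104 and 85 bases before the start of the gene, and the 2 Ifit3 copies 156 and 122 bases before it. Of the 41 members, 32 had a promoter in the RefSeq table, and 17 of those 32 (53.1%) held the core, against 3.99% of 27025 genes in the table. By window, 17 of 40 member windows (42.5%) held it, against 3.44% of all 32851 windows. The members with a match included Isg15, Stat2, Irgm1, Rsad2, Eif2ak2 and Bst2, while the windows of Ifit2, Xaf1, Dtx3l, Trim25 and Irf7 held none.

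Of the 35 members detected on at least 4 arrays, 23 were detected more often on RFP- arrays, against 54.5% of such genes. Oasl1 (4 of 9 RFP+ and 1 of 10 RFP- arrays), Rsad2 (4 and 2) and Stat2 (3 and 2) were among those that went the other way. A member was counted as detected where any of its probes was well above background. GFP+RFP+ arrays detected 21 to 27 of the 41 members (median 23.5), GFP-RFP+ arrays 13 to 32 (median 18), GFP+RFP- arrays 22 to 33 (median 28) and GFP-RFP- arrays 29 to 32 (median 31). The GFP-RFP+ array with 32 members was replicate 3, the array with bright Foxp3, and the GFP+RFP- array with 22 was replicate 4, which had the fewest probes detected of all RFP- arrays (30.2%). Over the 35 tested members, 56.8% of measurements on RFP+ arrays were well above background, against 82.0% on RFP- arrays. The same shares over all tested genes were 61.1% and 74.5%.

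**Figure D1:**
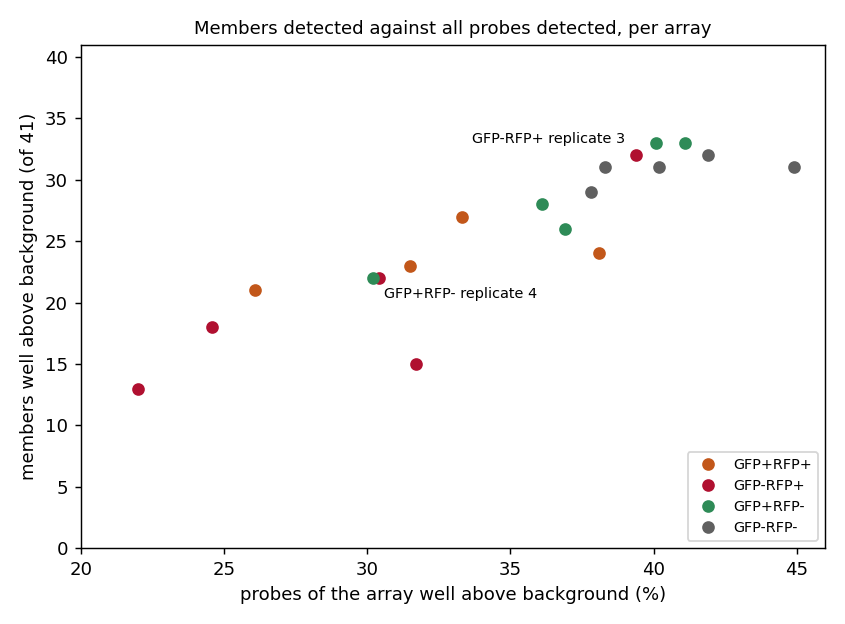
Members detected on each array (vertical axis, of 41) against the percent of all probes of that array that were well above background (horizontal axis), with 1 point per array coloured by group. GFP-RFP+ replicate 3 lies among the RFP- arrays and GFP+RFP- replicate 4 among the RFP+ arrays. The RFP+ arrays lie between 13 and 32 members, against 22 to 33 on RFP- arrays.

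The RNA sensor Dhx58, Ifit1, Ifit2, Ifit3, the GTPase Igtp and the transcription factor Irf7 were detected on at least 7 of 10 RFP- arrays and on at most 3 of 9 RFP+ arrays. These are 6 of the 35 members detected on at least 4 arrays (17.1%), against 8.6% of 20943 such genes. No member showed the mirror pattern, against 0.282% of genes. Just outside the rule, Parp14 was detected on 0 of 9 RFP+ and 6 of 10 RFP- arrays and Xaf1 on 4 of 9 and 10 of 10. Both rules were chosen after the data were seen. Mx1, a GTPase, was detected on no array. Usp18, which removes ISG15 from proteins, was detected on 3 arrays, all GFP+RFP-. Oas1g, Oas3, Mx2 and Irgm2 were detected on 1 to 3 arrays each, and none of these 6 entered the test.

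**Figure D2:**
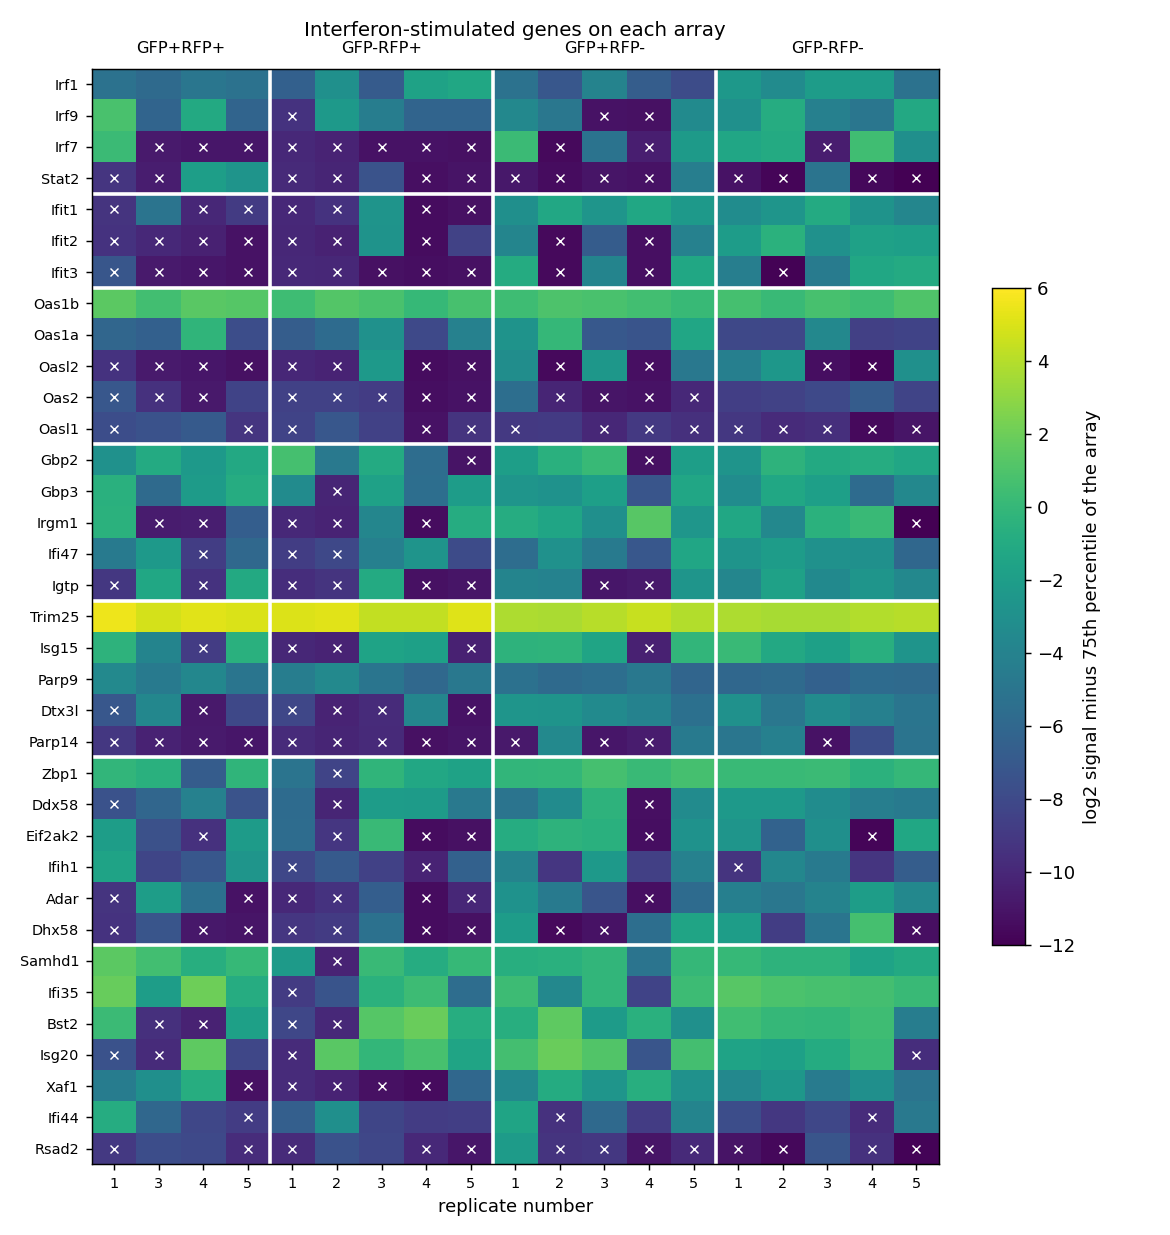
Log2 signal of the 35 tested members (rows, grouped by role) on the 19 arrays (columns, by group and replicate), relative to the 75th percentile of each array, as colour. White crosses mark probes not well above background, which covered the Ifit3 row on all 9 RFP+ arrays.

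All 3 IFIT genes fell in red cells. Levels are log2 signal relative to the array's 75th percentile. Ifit1, whose protein binds viral RNA that lacks cap methylation, was measured by 1 probe (chr19:34723796-34723855, mm9). Its levels were -9.32, -5.05, -10.00 and -8.87 on GFP+RFP+ arrays and -9.95, -9.38, -2.71, -11.37 and -11.19 on GFP-RFP+ arrays, against -3.01, -1.24, -2.62, -1.26 and -2.28 on GFP+RFP- arrays and -3.25, -2.62, -0.97, -2.77 and -3.74 on GFP-RFP- arrays. It was above background on 2 of 9 RFP+ arrays and on all 10 RFP- arrays, and only GFP-RFP+ replicate 3 reached the RFP- range. Averaged over GFP, the fitted RFP+ minus RFP- difference was -6.24 ± 0.97 (SE; limma, adjusted p = 0.0022). Where an array is not above background its level is only an upper bound, so this and the other differences of that kind are fitted values. In deposited intensity units, Ifit1 read 2.913 to 1793 on RFP+ arrays, against 873.7 to 8527 on RFP- arrays.

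Ifit2, a relative of Ifit1 linked to apoptosis and antiviral defence, was measured at chr19:34650244-34650303. Its levels were -9.38, -9.92, -10.33 and -11.14 on GFP+RFP+ arrays, none of them above background, and -9.98, -10.27, -2.78, -11.41 and -8.45 on GFP-RFP+ arrays. They were -3.84, -11.53, -6.74, -11.24 and -4.12 on GFP+RFP- arrays, and -2.07, -0.51, -2.86, -1.68 and -1.81 on GFP-RFP- arrays. The GFP-RFP- arrays were all bright and apart from 4 of the 5 GFP-RFP+ arrays, while the GFP+RFP- arrays were split between 3 above background and 2 not. Ifit2 fell by 4.75 on the log2 scale on RFP+ arrays averaged over GFP (SE 1.17; limma, adjusted p = 0.018).

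Ifit3, which joins Ifit1 in RNA binding, was measured at chr19:34663105-34663164. It was above background on no RFP+ array (-7.21, -10.73, -10.91 and -11.15 on GFP+RFP+ arrays and -9.95, -10.03, -11.18, -11.32 and -11.19 on GFP-RFP+ arrays). The levels were -0.91, -11.52, -3.87, -11.28 and -1.31 on GFP+RFP- arrays and -4.28, -11.86, -4.51, -1.31 and -1.01 on GFP-RFP- arrays, of which 7 of 10 were above background. As no RFP+ array was above background, Ifit3 entered the test through RFP- arrays alone. Averaged over GFP it was 11.4-fold lower on RFP+ arrays by a floor estimate (means -10.41 ± 1.30 and -5.19 ± 4.60, SD, n = 9 and 10, with limma adjusted p = 0.042). This floor estimate sets the mean of the RFP- arrays against the lowest signal well above background on each RFP+ array, or Ifit3's own signal where that was higher. RFP- arrays not above background kept their own signal in that mean, so the estimate is not a strict bound. The call was lost in 14 of the 19 fits that each left out 1 array (adjusted p = 0.051 to 0.079 where lost), and kept without GFP+RFP+ replicate 1, GFP-RFP+ replicate 4, GFP+RFP- replicate 2, GFP+RFP- replicate 4 and GFP-RFP- replicate 2.

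**Figure D3:**
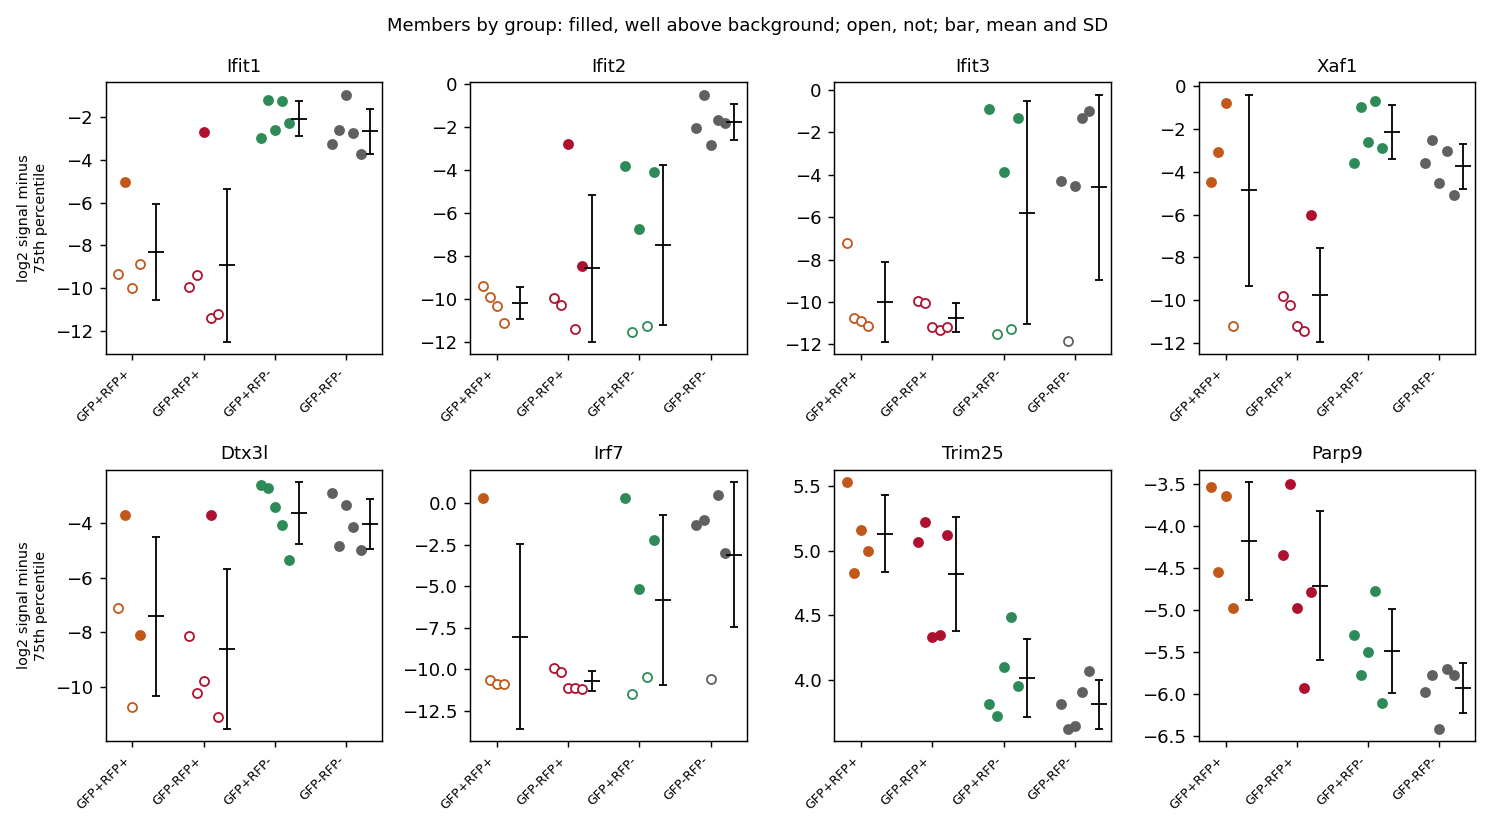
Log2 signal of 8 members on each array by group, relative to the array's 75th percentile, with filled points well above background and open points not, and with the group mean and SD as a bar. Ifit1, Ifit2, Ifit3, Xaf1, Dtx3l and Irf7 lie lower on RFP+ arrays, while Trim25 and Parp9 lie higher there on this scale. Without scaling Trim25 does not, and Parp9 averages 8.05 on RFP+ and 8.01 on RFP- arrays.

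Dtx3l and Xaf1 were the other members that fell. Dtx3l, a ubiquitin ligase that works with Parp9 at damaged DNA, read -7.10, -3.69, -10.74 and -8.11 on GFP+RFP+ arrays and -8.15, -10.24, -9.80, -3.71 and -11.12 on GFP-RFP+ arrays. It read -2.59, -2.71, -3.39, -4.05 and -5.34 on GFP+RFP- arrays and -2.88, -4.85, -3.32, -4.13 and -4.98 on GFP-RFP- arrays. It was above background on all 10 RFP- arrays and on 3 of 9 RFP+ arrays, 2 of which reached the RFP- range. The difference averaged over GFP was -4.18 ± 0.95 (SE; limma, adjusted p = 0.013). Its other 2 probes differed by -0.23 ± 1.17 and -0.49 ± 1.94, so the call is that of the brightest of 3 probes.

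Xaf1 is a pro-apoptotic antagonist of XIAP. Its levels were -4.45, -3.07, -0.76 and -11.18 on GFP+RFP+ arrays and -9.81, -10.24, -11.21, -11.44 and -6.01 on GFP-RFP+ arrays, against -3.58, -0.95, -2.61, -0.68 and -2.87 on GFP+RFP- arrays and -3.59, -2.50, -4.54, -3.03 and -5.07 on GFP-RFP- arrays. All GFP-RFP+ arrays lay below all RFP- arrays, whereas 3 of 4 GFP+RFP+ arrays lay within the RFP- range. Averaged over GFP, Xaf1 fell by 4.36 on the log2 scale (SE 1.08; limma, adjusted p = 0.018). Between the regulatory groups, GFP+RFP+ minus GFP-RFP+ was 4.88 ± 1.57, which did not pass the test (limma, adjusted p = 0.76).

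Over the 35 tested members, 5 fell on RFP+ arrays averaged over GFP (14.3%), against 4.64% of 20552 genes tested. Those 5 were Ifit1, Ifit2, Ifit3, Dtx3l and Xaf1. Of these, the tested probes of Ifit1, Ifit2, Ifit3 and Dtx3l were above background on fewer than 4 RFP+ arrays. They entered the test only with the help of RFP- arrays, under a filter that was the same for all genes. A further 2 rose, Trim25 and Parp9 (5.71%), against 8.63% of genes. The median member difference was -2.04, against -0.08 over all genes, and 25 of 35 members lay below 0, against 52.4% of genes. At an unadjusted p under 0.05 there were 14 members (40.0%), against 30.9% of genes. When the percent of probes detected on each array was added to the model, no member was called and 26 genes were. Ifit1 then differed by -4.91 ± 1.25 (SE; limma, adjusted p = 0.12), Dtx3l by -5.69 ± 1.18 (adjusted p = 0.067), Ifit2 by -2.0 ± 1.24 (adjusted p = 0.43), Xaf1 by -4.30 ± 1.49 (adjusted p = 0.20) and Ifit3 by -4.37 ± 2.18 (adjusted p = 0.32). The median member difference was then -0.01. Within each of the 3 slides, the Ifit1 difference was -4.29, -7.72 and -7.07, and no member was called in these fits of 8, 6 and 5 arrays.

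Trim25 and Parp9 rose, each by its brighter probe, but the Trim25 difference turned negative with no scaling between arrays, with quantile normalization, in the series table and with the mean of its probes. Trim25, a ubiquitin ligase that activates RIG-I, read 5.53, 4.83, 5.16 and 5.00 on GFP+RFP+ arrays and 5.07, 5.22, 4.33, 4.35 and 5.12 on GFP-RFP+ arrays with its bright probe (chr11:88874956-88881181, mm9). It read 3.81, 3.72, 4.10, 4.49 and 3.95 on GFP+RFP- arrays and 3.81, 3.62, 3.64, 3.91 and 4.07 on GFP-RFP- arrays, so that 7 of 9 RFP+ arrays lay above every RFP- array. The difference averaged over GFP was 1.06 ± 0.23 (SE; limma, adjusted p = 0.011). With no scaling between arrays it was -0.16, with quantile normalization -0.08, in the series table -0.08 and with the mean of its probes -1.07.

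The last 30 bases of this 60-base probe are shown because no other member has a probe of this kind, with capitals marking the repeat.
Trim25 bright probe: GTGTGTGTGTGTGTGTGTGTGTGTGTGTGT
The repeat covers all 30 of those bases. Of 76 probes on the array with a TG or AC repeat of at least 20 bases, all 76 were well above background on every array, against 11.9% of all 55681 probes. The other Trim25 probe (chr11:88881521-88881580) was detected on 0 of 9 RFP+ arrays and on 6 of 10 RFP- arrays, and differed by -3.20 ± 1.15 (limma over all probes, adjusted p = 0.077).

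**Figure D4:**
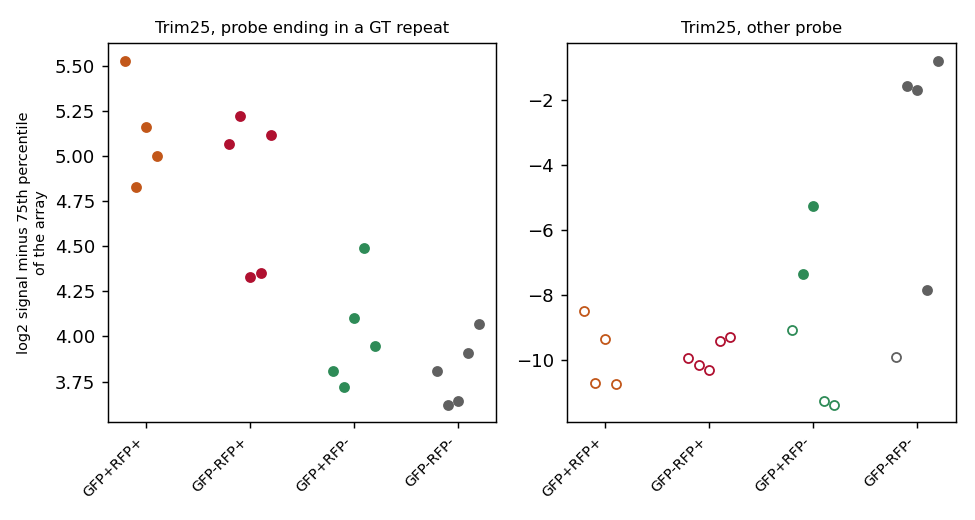
Log2 signal of both Trim25 probes on each array by group, relative to the array's 75th percentile, on separate vertical scales (filled points, well above background). The probe that ends in a repeat is high on all 19 arrays and higher on RFP+ arrays on this scale, though not without scaling, while the other probe is above background on 6 RFP- arrays and on no RFP+ array.

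Parp9, which pairs with Dtx3l in modifying histones, read -3.54, -4.55, -3.64 and -4.98 on GFP+RFP+ arrays and -4.35, -3.50, -4.98, -5.93 and -4.79 on GFP-RFP+ arrays. It read -5.30, -5.77, -5.50, -4.78 and -6.11 on GFP+RFP- arrays and -5.98, -5.78, -6.42, -5.70 and -5.77 on GFP-RFP- arrays, and the groups overlapped. The difference averaged over GFP was 1.27 ± 0.33 (SE; limma, adjusted p = 0.022). Without scaling it was 0.05 (adjusted p = 0.90), and unscaled log2 signal averaged 8.05 ± 0.54 on RFP+ arrays and 8.01 ± 0.31 on RFP- arrays (SD, n = 9 and 10). Without GFP+RFP+ replicate 4 the adjusted p was 0.051. The second Parp9 probe, near background, differed by -0.60 ± 1.05.

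No transcription factor, OAS enzyme, GTPase or nucleic acid sensor among the members passed the test in the average over GFP. Irf7, the factor that amplifies type I interferon production, was the factor with the smallest p. Its levels were 0.29, -10.68, -10.89 and -10.91 on GFP+RFP+ arrays and -9.96, -10.20, -11.14, -11.15 and -11.18 on GFP-RFP+ arrays, against 0.29, -11.51, -5.17, -10.48 and -2.22 on GFP+RFP- arrays and -1.35, -1.02, -10.59, 0.46 and -3.03 on GFP-RFP- arrays. It was on or off from array to array, with 1 of 9 RFP+ and 7 of 10 RFP- arrays above background (difference -4.92 ± 1.87, limma, adjusted p = 0.086). Of the other factors, Irf1 differed by 0.00 ± 0.78, Irf9 by 0.40 ± 1.35 and Stat2 by 2.0 ± 1.34.

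Irgm1, a GTPase of autophagy in infected cells, read -0.48, -10.64, -10.51 and -6.64 on GFP+RFP+ arrays and -9.94, -10.23, -3.71, -11.37 and -0.86 on GFP-RFP+ arrays. It read -0.87, -1.42, -3.05, 1.30 and -2.57 on GFP+RFP- arrays and -1.27, -3.61, -0.51, 0.20 and -12.02 on GFP-RFP- arrays. Of the 10 RFP- arrays 9 were bright, against a spread from near background to bright on RFP+ arrays (difference -4.76 ± 1.84, limma, adjusted p = 0.092). When every probe was fitted on its own, the second Irgm1 probe was called, at -3.52 ± 1.01 (adjusted p = 0.035). All 5 tested GTPases lay below 0, with a median of -2.04.

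Zbp1, a sensor of Z-form nucleic acid that triggers necroptosis, read -0.13, -0.57, -6.79 and -0.22 on GFP+RFP+ arrays and -5.05, -8.34, -0.23, -1.18 and -1.6 on GFP-RFP+ arrays. It read -0.12, -0.05, 0.66, 0.23 and 0.69 on GFP+RFP- arrays and 0.22, 0.18, 0.28, -0.40 and 0.02 on GFP-RFP- arrays. The RFP- arrays stayed within a narrow band, in which 2 of 4 GFP+RFP+ arrays and 1 of 5 GFP-RFP+ arrays also lay (difference -2.77 ± 1.01, limma, adjusted p = 0.075). Its second probe was called when fitted on its own (-3.20 ± 0.88, adjusted p = 0.030). All 6 tested sensors lay below 0, from Ifih1 (MDA5) at -0.32 ± 1.17 to Dhx58 (LGP2) at -3.58 ± 1.67.

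Of the 5 tested OAS genes, 2 lay below 0 and 3 above it, with a median of 0.22. Oasl1, which in mice restrains Irf7 translation, read -7.75, -7.43, -6.93 and -9.21 on GFP+RFP+ arrays and -8.35, -7.10, -8.50, -11.12 and -9.29 on GFP-RFP+ arrays. It read -9.01, -8.96, -10.01, -9.03 and -9.47 on GFP+RFP- arrays and -9.06, -9.79, -9.56, -11.57 and -10.95 on GFP-RFP- arrays. Only 4 of 9 RFP+ arrays and 1 of 10 RFP- arrays were above background, and the groups overlapped (difference 1.39 ± 0.50, limma, adjusted p = 0.070). Oas1b, bright on all 19 arrays, differed by 0.31 ± 0.25, and Oasl2 by -3.17 ± 1.68. The remaining members included Isg15 itself (-3.23 ± 1.66, adjusted p = 0.20), the tetherin gene Bst2 (-3.39 ± 1.74) and the viperin gene Rsad2 (0.31 ± 0.98), none of which passed.

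The comparison of regulatory with other cells was then made without and with the green reporter. Without it, GFP-RFP+ against GFP-RFP-, 2 of 35 members fell (5.71%), against 1.24% of genes, and none rose, against 0.467%. Ifit1 differed by -6.25 ± 1.34 (SE; limma, adjusted p = 0.033) and Ifit2 by -6.79 ± 1.61 (adjusted p = 0.042). The median member difference was -2.47, against -0.29 over all genes, with 26 of 35 members below 0, against 57.1% of genes. At an unadjusted p under 0.05 there were 15 members (42.9%), against 22.6% of genes. By the floor estimate, Irf7 was 50-fold lower in GFP-RFP+ than in GFP-RFP- cells and Ifit3 17.8-fold lower. Only 4 of 5 GFP-RFP- arrays detected each gene, so here too the estimate is not a strict bound. No GFP-RFP+ array detected either gene, so both entered the test through other groups. Neither passed limma's test (adjusted p = 0.11 and 0.13). Xaf1 (-6.00 ± 1.48, adjusted p = 0.05 after rounding, just above the threshold), Adar (-5.73 ± 1.61, adjusted p = 0.073) and Dtx3l (-4.57 ± 1.30, adjusted p = 0.075) also missed the threshold. The second Adar probe differed by -2.93 ± 2.54, and the other Dtx3l probes by 0.85 ± 1.6 and -0.78 ± 2.66. With the percent of probes detected in the model no member was called, with Ifit1 at -4.38 ± 1.73 (adjusted p = 0.54) and Ifit2 at -2.94 ± 1.72 (adjusted p = 0.63). Leaving out 1 array at a time gave 0 to 5 members called. There were 0 without GFP-RFP+ replicate 1 or 2 or GFP-RFP- replicate 1, 2, 3 or 4. There was 1 without GFP+RFP+ replicate 1, GFP-RFP+ replicate 5, GFP+RFP- replicate 3 or GFP-RFP- replicate 5. There were 3 without GFP+RFP+ replicate 5 and 5 without GFP-RFP+ replicate 4. Leaving out GFP-RFP+ replicate 3, or likewise GFP+RFP- replicate 4, gave 4. The Ifit1 call was lost in 7 of these 19 fits (adjusted p up to 0.077) and the Ifit2 call in 12 (adjusted p up to 0.10).

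With the green reporter, GFP+RFP+ against GFP+RFP-, no member was called by limma, against 0.204% of genes. At an unadjusted p under 0.05 there were 5 members (14.3%), against 17.5% of genes. Ifit1 differed by -6.23 ± 1.42 (limma, adjusted p = 0.071). Of the 19 fits that each left out 1 array, it was called only in that without GFP-RFP+ replicate 3. That array is in neither group compared here, but it enters the spread that all groups share in the fit. The others of the 5 members were Irgm1 (-5.75 ± 2.68), Dtx3l (-3.79 ± 1.38), Parp9 (1.31 ± 0.48) and Trim25 (1.12 ± 0.34). The median member difference was -0.89, against 0.22 over all genes. Among members with a larger unadjusted p, Bst2, Isg20, Oasl2 and Ifit3 lay below 0, and Irf9, Stat2 and Ifi35 above it.

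**Figure D5:**
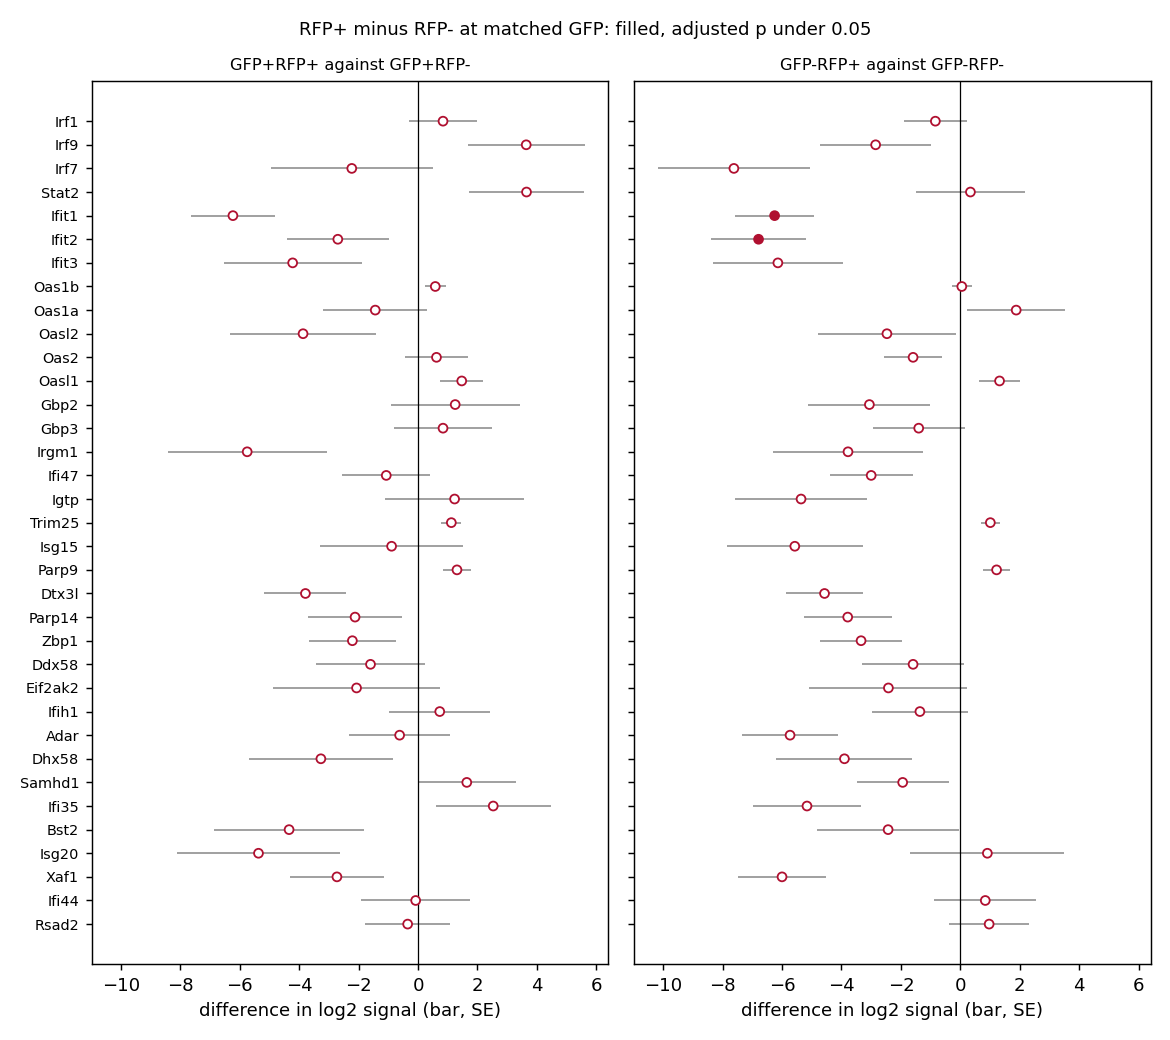
Difference in log2 signal (horizontal axis, with SE as a bar) for each of the 35 tested members, for GFP+RFP+ against GFP+RFP- cells on the left and GFP-RFP+ against GFP-RFP- cells on the right. Filled points passed an adjusted p of 0.05, and only Ifit1 and Ifit2 on the right did so.

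The red difference itself was compared between the green states by the interaction, GFP+ minus GFP-. No member was called by limma, against 0.00973% of genes. At an unadjusted p under 0.05 there were 3 members (8.57%), against 4.92% of genes: Ifi35 (7.69 ± 2.65), Irf9 (6.5 ± 2.7) and Adar (5.11 ± 2.35), each with an adjusted p of 1. For Adar, the red difference of the tested probe was -0.62 ± 1.71 in GFP+ and -5.73 ± 1.61 in GFP- cells. That of its second probe was -1.46 ± 2.7 and -2.93 ± 2.54. The members' median interaction was 1.66, against 0.40 over all genes.

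IL-2 reporter status gave no called member. In GFP+RFP- against GFP-RFP- cells, 0 of 35 members passed limma's test, against 0.00973% of genes. At an unadjusted p under 0.05 there were 4 members (11.4%), against 5.16% of genes. Ifit2 was the largest of these, at -5.70 ± 1.61 (adjusted p = 0.59), and the others were Irf1 (-3.15 ± 1.07), Irf9 (-4.0 ± 1.86) and Oas1a (3.67 ± 1.65). In GFP+RFP+ against GFP-RFP+ cells, 0 of 35 passed, against 0.00487% of genes. Here 2 members (5.71%) had an unadjusted p under 0.05, against 5.41% of genes, namely Xaf1 and Ifi35 (4.63 ± 1.93, adjusted p = 0.89). The member medians were -0.11 and 0.91 in these comparisons, against -0.03 and 0.41 over all genes.

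A few genes upstream of the members were called in the average over GFP, where 4.64% of all genes fell and 8.63% rose. Of 8 tested genes for interferon receptors and their kinases, Tyk2 fell on RFP+ arrays averaged over GFP and none rose. Tyk2, a kinase of the type I receptor, was detected on 1 of 9 RFP+ and 9 of 10 RFP- arrays and fell by 6.81 on the log2 scale (SE 1.54; limma, adjusted p = 0.013). Tyk2 thus entered the test only with the help of RFP- arrays. The receptor chain Ifnar1 differed by -3.25 ± 1.46 (adjusted p = 0.14), and 6 of the 8 lay below 0. Of 4 further transcription factors, Irf3, which starts interferon production, fell by 3.24 (SE 0.82, adjusted p = 0.019), and none rose. Irf3 also fell in GFP-RFP+ against GFP-RFP- cells, by 5.83 (SE 1.12, adjusted p = 0.021).

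Of 7 negative regulators, Pias1 was 6.88-fold lower on RFP+ arrays by the floor estimate (limma, adjusted p = 0.030). Its tested probe was above background on no RFP+ array and on 7 of 10 RFP- arrays, so it entered the test through RFP- arrays alone. Counting any of its probes, Pias1 was detected on 2 of 9 RFP+ arrays. None of 7 tested adaptors of nucleic acid sensing was called. Of the 8 interferon genes, 0 to 2 were above background on each RFP+ array and 0 to 4 on each RFP- array. Ifng was detected on 4 of 9 RFP+ and 6 of 10 RFP- arrays, up to a level of 1.49 on a GFP-RFP+ array, and differed by -0.23 ± 1.67, while 3 of the 8 were detected on no array. Of 33 tested further interferon-induced genes, 2 fell, Slfn1 and Sp100, and 1 rose, Ifitm3, against 4.64% of all genes lower and 8.63% higher. Slfn1, a growth regulator of quiescent T cells, fell by 7.29 (SE 1.25, adjusted p = 0.0035), with 2 of 9 RFP+ and all 10 RFP- arrays above background. Ifitm3, which blocks viral entry, rose by 3.71 (SE 1.19, adjusted p = 0.048). Slfn1 entered the test only with the help of RFP- arrays, and Ifitm3 only with the help of RFP+ arrays. The median of those 33 was -1.49, with 27 below 0.

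Among markers of other cells, the B cell receptor component Cd79b fell by 6.19 on RFP+ arrays (SE 1.10; limma, adjusted p = 0.0042). The myeloid integrin Itgam rose by 1.14 (SE 0.27, adjusted p = 0.015), and its unscaled log2 signal averaged 16.49 ± 0.38 on RFP+ arrays and 16.56 ± 0.17 on RFP- arrays (SD, n = 9 and 10). Itgam was the 1 called gene of 6 tested myeloid and dendritic markers, whose median was 0.09. Others of that list were detected on fewer RFP+ than RFP- arrays, with Cd68 on 6 of 9 and 9 of 10, Fcgr3 on 3 of 9 and 7 of 10, Cd14 on 4 of 9 and 6 of 10 and Lyz2 on 6 of 9 and 8 of 10. Of the 5 tested B cell markers 4 lay below 0, with a median of -1.47. Their part in the members' differences was not tested.

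Correlation between members was described without a value for other genes beside it. It therefore does not show whether members moved together more or less than other genes. The median correlation over the 595 pairs of tested members was 0.18 across the 19 arrays, which share brightness, and 68.6% of pairs were positive. Group means were not removed, so differences between the groups are part of these correlations.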

How the data were processed

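Total RNA of CD4 T cells was amplified by a global PCR, labelled with Cy3 and hybridized to 1-colour 60-mer arrays, per the labels' protocols. The deposited scanner values are linear intensity values from the scanner software (Agilent Feature Extraction, version 10.7.3.1 in the submitters' processing notes), per the file headers. The authors' series table holds log2 values, deposited with a normalization not given in the sources used here, and served as an alternative. Outlier spots were left out (3296) and repeated spots averaged.

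Log2 processed signal was taken relative to the 75th percentile of each array, taken over the 6621 probes that all 19 arrays detected. A probe needed detection on 4 or more arrays of any group (28104 passed), and the brightest probe stood for each of 20552 gene names. A gene bright in some groups only could thus enter the test through those groups. Limma 3.58.1 (R 4.3.3) fitted the 4 groups together, with Benjamini-Hochberg adjustment over all genes and calls under 0.05. The average over GFP uses all 19 arrays. The code was tested on simulated data. Figures and motif searches used Python 3.11.15, pandas 2.3.3 and matplotlib 3.10.9. The number of arrays limits the precision.

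Values per array are given for members called in any comparison and for the member of each role with the smallest p; from other lists, called genes and up to 2 per list are named, and further members were picked after their values were seen. Members and lists were chosen with earlier results of these data known. Alternatives covered scaling, background correction, filters, probe choice, the series table, blocks, single slides and leaving out arrays.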

Additional observations from a re-analysis of the deposited data

Results flagged for a closer look

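Of 52 combinations of a group with a gene or with the members detected per array, 4 held an array far from the rest of its group. The cut-off gives about 1 in 20 for normally distributed values. Levels split between background and bright are not so distributed, so that rate need not hold here. Irf7 read 0.29 on GFP+RFP+ replicate 1, far above the other arrays of that group. Ifit1 read -2.71 on GFP-RFP+ replicate 3, the array that also had bright Foxp3. Ifit3 read -7.21 on GFP+RFP+ replicate 1, higher than the others but not well above background. Zbp1 read -6.79 on GFP+RFP+ replicate 4, far below the others.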

How the results depend on the processing

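Members called in GFP-RFP+ against GFP-RFP- cells numbered 2 of 35, both lower, where 1.7% of all genes were called. There were 7 (4 lower, 3 higher) with the 75th percentile over all probes (19.6% of genes) or normexp (22.9%), 7 (6 lower, 1 higher) in the series table (17.7%), and 8, all lower, with no scaling (9.8%; chosen after seeing the data). There were 4 with median centring (3.0%) or a slide block (6.0%), all lower, and 4 (3 lower, 1 higher) with quantile normalization (17.1%) or a trend and robust prior (3.69%). There was 1 with no filter (0.897%), lower, and 1 with probes detected on all 19 arrays (10.3%), higher. There were 0 with the percent detected in the model (0.0243%), within each slide and without arrays under 30% detected (0.131%). For GFP+RFP+ against GFP+RFP-, 0 became 4 with normexp (1 lower, 3 higher; 23.7% of genes), 2 (1 lower, 1 higher) with a common floor (2.61%) or the trend and robust prior (1.63%), 1 higher with probes detected on all arrays (13.0%), and 1 lower with a slide block, only the groups compared or no scaling (0.788%, 0.36% and 1.22%). Averaged over GFP, 7 of 35 were called (5 lower, 2 higher, 13.3% of genes). This became 12 of 41 with no filter (28.3%) and 3 of 6 with probes detected on all arrays (29.3%). It became 13, all lower, with no scaling (26.9%), and 0 with the percent detected in the model (0.127%) and within each slide. The split by direction also changed. It was 3 lower and 3 higher without arrays under 30% detected (11.3%). With the 75th percentile over all probes it was 5 lower and 4 higher (30.7%), and with median centring 5 lower and 0 higher (8.89%). Leaving out 1 array gave 0 to 5, 0 to 1 and 5 to 9 members called in these comparisons. The replicate block gave 1 call in GFP-RFP+ against GFP-RFP- cells and 7 averaged over GFP, and same-numbered samples shared only a number (0 of 18 pairs correlated above 0.1).

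The median member difference in GFP-RFP+ against GFP-RFP- cells (-2.47, all genes -0.29) moved to -1.17 with the 75th percentile over all probes (all genes 1.02, members minus genes -2.18 in both fits), -1.05 with normexp (genes 0.36), 0.53 with probes detected on all arrays (genes 0.22) and -4.18 within slide 2 (genes 0.47). For GFP+RFP+ against GFP+RFP- (-0.89) it moved to 0.71 with probes detected on all arrays (genes 0.54), 0.90 within slide 2 (genes 0.63) and -2.14 with no scaling (genes -1.04, members minus genes -1.10 in both fits). In GFP+RFP- against GFP-RFP- cells it was -1.87 within slide 2 (genes -0.01). Averaged over GFP (-2.04) it moved to -0.83 with normexp (genes 0.44), 0.27 with probes detected on all arrays (genes 0.35), -0.01 with the percent detected in the model (genes 0.26) and -3.25 with no scaling (genes -1.30, members minus genes -1.95 in both fits). The interaction moved to 0.27 with probes detected on all arrays (genes 0.23) and 0.40 within slide 3 (genes 0.40). Trim25 averaged over GFP reversed to -0.08 with quantile normalization, -0.08 in the series table, -1.07 with the mean of its probes and -0.16 with no scaling. Probes detected on all arrays left 6 members to test, and the slides hold 5 to 8 arrays; the other causes were not tested. Signal over background limits every member that is not detected on all arrays.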
